A study of Caenorhabditis elegans with 2 samples.

Results

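The regions described here have weak NFYA-1 signal in *Caenorhabditis elegans*, lie away from promoters and carry a CCAAT box. They may include background and are not shown to be bound. They were chosen from the authors' pooled list of called and background regions by 5 criteria: on a nuclear chromosome, absent from the authors' reproducible (IDR-thresholded) list, summit outside 500 bp upstream to 100 bp downstream of every coding transcript start, summit inside a region of both replicates' own lists, and a CCAAT box on either strand lying wholly within 50 bp of the summit. Of 15499 nuclear pooled regions, 11415 were not in the thresholded list, 8776 of those lay outside promoters, 4438 of those were in both replicates (here called candidate regions), and 1011 of those carried CCAAT. The pooled signal, the distance from promoters, replicate membership and the presence of CCAAT thus chose the 1011 members, and for members these values are a description, without a test. Tests of CCAAT itself use the candidate regions, which were taken before that criterion. Tests of members use the bases beside the box, the annotation class, masked sequence and the placement of replicate summits, which no criterion set beyond leaving out promoters and asking for a region in each replicate.

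The study is a chromatin immunoprecipitation sequencing experiment on whole hermaphrodite late embryos of 1 transgenic line, OP404 (unc-119(tm4063) III; wgIs404), which carries NFYA-1 with a C-terminal GFP-FLAG tag. There was 1 group with 2 biological replicates and no second condition, and the labels give neither a batch nor the state of the line's own nfya-1 gene. The sample descriptions name an anti-GFP antibody, while the antibody field names nfya-1. The whole embryo was the input, so the cell types behind a region are not known, and read depth is unknown from these lists.

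NF-Y is a trimer of NFYA, NFYB and NFYC. The NFYB and NFYC subunits form a histone-fold pair, and NFYA joins them and reads the CCAAT pentamer in the minor groove. The trimer is known to prefer particular bases next to the pentamer, and in *C. elegans* it has been tied to repression of the Hox gene egl-5 and the T-box gene tbx-2. A CCAAT box was called extended here when all 4 bases beside it matched that known preference: A or G at both positions before it, then C or G and then A or G after it, read on the strand of the box, with both strands searched. Extended boxes made up 4.93% of the 242432 CCAAT boxes of the nuclear genome.

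The 3 strongest members with an extended box and no pair of boxes of the kind shown next come first, because the bases flanking the box differed between members and the windows beside them. Each sequence is the 101-base window centred on the pooled summit, 5′ to 3′ on the strand of its first extended box, from the RefSeq copy of WBcel235. Capitals mark each CCAAT box together with its 4 preferred bases, or the 5 box letters alone (on either strand) where not all 4 matched.
pde-12 chrIII:10842925-10843025 (minus strand): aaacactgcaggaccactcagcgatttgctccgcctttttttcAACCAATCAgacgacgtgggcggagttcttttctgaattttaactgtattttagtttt
flcn-1 chrII:6940023-6940123 (minus strand): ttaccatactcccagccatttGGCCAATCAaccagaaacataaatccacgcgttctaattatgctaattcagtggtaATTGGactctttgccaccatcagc
W05H9.4 chrX:6256610-6256710 (minus strand): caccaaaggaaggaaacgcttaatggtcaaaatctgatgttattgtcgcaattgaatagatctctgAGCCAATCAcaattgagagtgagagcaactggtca
The pde-12 window lies in a pde-12 intron, 2045 bp downstream of a coding start, and had a pooled signal of 57.2, with 16.6 in replicate 1 and 36.8 in replicate 2. The flcn-1 window lies in an intron of flcn-1, the folliculin ortholog; its signals were 57.0 pooled, 26.5 in replicate 1 and 40.4 in replicate 2. The intergenic window 6988 bp upstream of W05H9.4 had 56.5, 33.7 and 20.7. Replicate 2 was the higher one for pde-12 and flcn-1 and replicate 1 for W05H9.4.

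The next 3 members are shown for their arrangement, in which 2 extended boxes on the same strand start 32 bp apart.
mgl-3 chrIV:5441381-5441481 (minus strand): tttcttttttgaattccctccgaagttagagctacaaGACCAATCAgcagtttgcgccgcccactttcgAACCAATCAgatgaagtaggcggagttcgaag
fln-1 chrIV:364569-364669 (minus strand): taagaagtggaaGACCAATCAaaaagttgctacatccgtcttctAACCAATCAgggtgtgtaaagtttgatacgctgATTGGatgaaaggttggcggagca
iffb-1 chrIII:2323840-2323940 (plus strand): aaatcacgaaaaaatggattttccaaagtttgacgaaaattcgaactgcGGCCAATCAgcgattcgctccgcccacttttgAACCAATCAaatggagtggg
All 3 windows are intronic. The mgl-3 intron (a metabotropic glutamate receptor gene) had signals of 55.9 pooled, 26.0 in replicate 1 and 27.4 in replicate 2. The fln-1 intron (filamin) had 53.7, 37.9 and 17.9. The iffb-1 intron (the eIF5B ortholog) had 49.9, 30.0 and 19.3. The 23 bases between the extended boxes of iffb-1 are a reference for the comparison of such pairs given further on.

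For contrast, these are strong members whose CCAAT lacks 1 or more of the 4 preferred bases, printed on the strand of the box.
igcm-3 chrX:2707512-2707612 (minus strand): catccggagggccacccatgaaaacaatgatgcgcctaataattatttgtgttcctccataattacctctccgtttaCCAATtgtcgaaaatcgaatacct
rpy-1 chrII:6707649-6707749 (minus strand): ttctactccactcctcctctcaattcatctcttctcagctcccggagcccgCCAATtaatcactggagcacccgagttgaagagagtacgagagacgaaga
The igcm-3 window is intergenic, 1703 bp upstream of a start of this immunoglobulin-like cell adhesion gene. Its signals were 57.9 pooled, 34.9 in replicate 1 and 28.3 in replicate 2. The rpy-1 summit is 2056 bp upstream of the rapsyn homolog and inside 2 annotated ncRNA genes, with signals of 57.6, 36.6 and 20.5. Both windows were as strong as the extended-box windows above.

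Members spanned the whole weak end of the pooled list. The signal is the authors' enrichment value, on a scale not given in the labels or headers. Pooled, it ran from 22.5 to 57.9 with a median of 32.9, and the −log10 q-value from 0.0181 to 1.71 with a median of 0.327. Just inside the threshold's lower side, the strongest members had 57.9 (an intron of kal-1, the anosmin ortholog), 57.9 (igcm-3), 57.6 (rpy-1), 57.6 (K09F5.6) and 57.6 (srgp-1, a Slit-Robo GTPase-activating homolog). Just outside, the weakest thresholded non-promoter peaks with CCAAT had 58.2, 58.2, 58.2, 58.4 and 58.4. At the other end, a coding exon of dgk-1, a diacylglycerol kinase gene, had 22.5 pooled, 13.6 in replicate 1 and 9.50 in replicate 2.

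The replicates gave members modest signals. Replicate 1 ranged from 11.5 to 94.5 with a median of 17.7, and replicate 2 from 8.26 to 45.4 with a median of 14.6. Replicate 1 was higher at 673 members (66.6%), the median ratio of replicate 1 to replicate 2 was 1.24, and 874 members (86.4%) were within 2-fold. The whole replicate lists differed in the same direction, with lowest signals of 11.5 and 8.25 and medians of 16.6 and 12.6. Candidates without CCAAT had medians of 17.4 and 14.6, so the higher replicate 1 signal is not particular to members. Across the 1011 members, which share both libraries, Spearman's rho between the replicates was 0.229, beside 0.236 over the 3427 candidate regions without CCAAT. The criteria had limited members to pooled signals of 22.5 to 57.9. The 2 replicate signals summed to a median of 0.996 of the pooled signal. That limit itself lowers rho, so these coefficients do not measure how well the replicates match. Pooled summits lay a median of 10 bp from the summit of the holding replicate 1 region and 17 bp from that of replicate 2. A CCAAT box was also within 50 bp of the replicate's own summit for 788 members (77.9%) in replicate 1 and for 777 (76.9%) in replicate 2.

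Some members ranked higher in one replicate's own list than in the pooled list. The gap was small for some, such as igcm-3 with rank 3750 in replicate 1 and 4119 pooled, and wide for others. The criteria dropped the thresholded list, whose lowest pooled signal was 58.2, so few members could rank high in both replicates. The counts that follow were not made for candidates without CCAAT. Within the 4098 strongest regions of a replicate's own list stood 44 members in replicate 1 and 46 in replicate 2, with 1 in both. That one, III:4010539, lies 1797 bp upstream of C36E8.4 and had 64.6 in replicate 1 and 45.4 in replicate 2, at a pooled rank of 8288. The highest replicate 1 value, at I:6949125 in an intron of hrde-4, was 94.5 against 12.1 in replicate 2 and 41.2 pooled. Both regions overlap a region of the thresholded list with a different summit, as do 11 members in all, so a stronger neighbour lies within the same interval there.

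**Figure D1:**
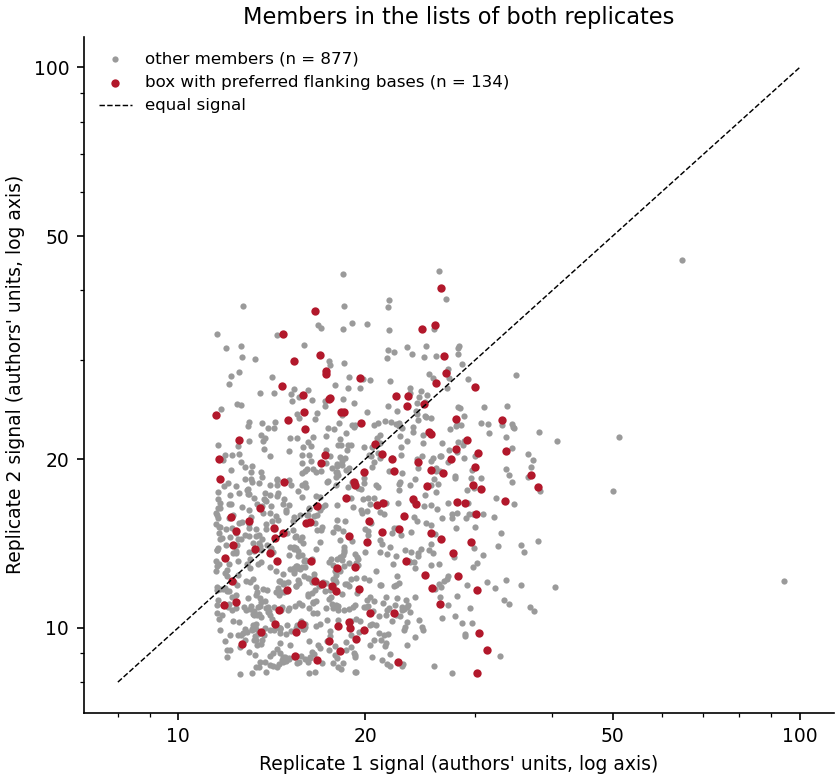
Signal of each of the 1011 members in the replicate 1 region (horizontal) and the replicate 2 region (vertical) that holds its summit, both in the authors' units on log axes; red points are the 134 members with an extended box and the dashed line marks equal signal. The points centre on 17.7 in replicate 1 and 14.6 in replicate 2, and red and grey points overlap over nearly the whole range.

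CCAAT alone was barely more frequent at the summits than beside them. Of 4438 candidate regions, 1011 (22.8%) held CCAAT within 50 bp of the summit, and 883 (19.9%) held it in a window of equal length 500 bp to one side. Flank windows were not held to the promoter criterion, and the centres of 521 of the 4438 lay in a promoter. The presence in only one window of a pair favoured the summit in 800 regions and the flank in 672, a ratio of 1.19 (95% interval 1.07 to 1.32; exact McNemar test, adjusted p = 0.00278 over 9 tests; every test here is two-sided). Without the largest family of alike sequences, described further on, the ratio was 1.13 with an adjusted p of 0.0538. Thresholded non-promoter peaks held CCAAT in 973 of 2272 (42.8%), which puts the odds for candidates at 0.394 of theirs (Fisher's exact test, interval 0.353 to 0.439, adjusted p = 2.74e-62). That odds ratio was 0.680 without all regions that align to another region.

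No difference in plain CCAAT was found by replicate support or box position, and its share was similar in the upper and lower 50% by signal. Regions found in fewer than both replicates held the pentamer in 996 of 4338 (23.0%), an odds ratio for candidates of 0.990 (95% interval 0.896 to 1.09; Fisher's exact test, adjusted p = 0.897). Within candidates, the 50% with the higher pooled signal held it in 517 of 2219 (23.3%) and the lower 50% in 494 of 2219 (22.3%), an odds ratio of 1.06. The split by signal is given as a description, because the threshold on pooled signal chose the regions. Of the boxes, 659 of the members' 1194 (55.2%) and 551 of 1004 boxes in flank windows (54.9%) had their middle within 25 bp of the window centre (odds ratio 1.01; Fisher's exact test, adjusted p = 0.897).

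The bases around the box differed clearly between summits and flanks. Extended boxes were 174 of the members' 1194 boxes (14.6%) but 43 of 1004 boxes in the flank windows of candidate regions (4.28%), close to the genome's 4.93%. The odds ratio was 3.81 (Fisher's exact test, interval 2.70 to 5.38, adjusted p = 4.89e-16). It was called in every alternative run, and was 2.26 without regions that align to another (Fisher's exact test, adjusted p = 9.10e-05), 2.45 without the largest family and 2.48 with a 100 bp search distance. Counted by region, 134 members held at least 1 extended box, which is 13.3% of members and 3.02% of candidate regions, against 38 flank windows (0.856%). The discordance ratio was 3.59 (interval 2.48 to 5.32; exact McNemar test, adjusted p = 2.28e-13 over 7 tests added after the data were seen), and 2.44 without aligned regions.

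Single positions after the box differed in the same way. The first base after CCAAT was C in 29.6% of members' boxes and 16.3% of flank boxes, the second was A in 36.4% and 25.2%, and the third was G in 29.2% and 17.3%. The 3 bases CAG followed 110 of 1194 boxes (9.21%) at summits and 16 of 1004 (1.59%) in flanks. TTT followed 90 (7.54%) at summits and 129 (12.8%) in flanks. These shares count the alike sequences of the largest family, described further on, as separate boxes. That family holds 44 of the 134 members with an extended box, and the shares were not recounted without it. Summit windows of candidates were also richer in G and C than flank windows (40.7% against 34.8% on average), and the part of this in the flanking bases was not tested.

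The other pentamers made of the same 5 letters gave a yardstick for that composition. Among the 30 arrangements of 2 C, 2 A and 1 T, counted with the same 4 flanking bases, CCAAT had the highest ratio of summit to flank counts, 4.05 (174 against 43). The next was CACAT with 1.61 (53 against 33), and the median of the 30 was 0.934. Without regard to flanking bases, CCAAT ranked 5 of 30 with 1.19. All these counts include regions that align to another. Without those regions, CCAAT with the 4 flanking bases had 95 summit and 39 flank counts, and the other pentamers were not recounted.

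**Figure D2:**
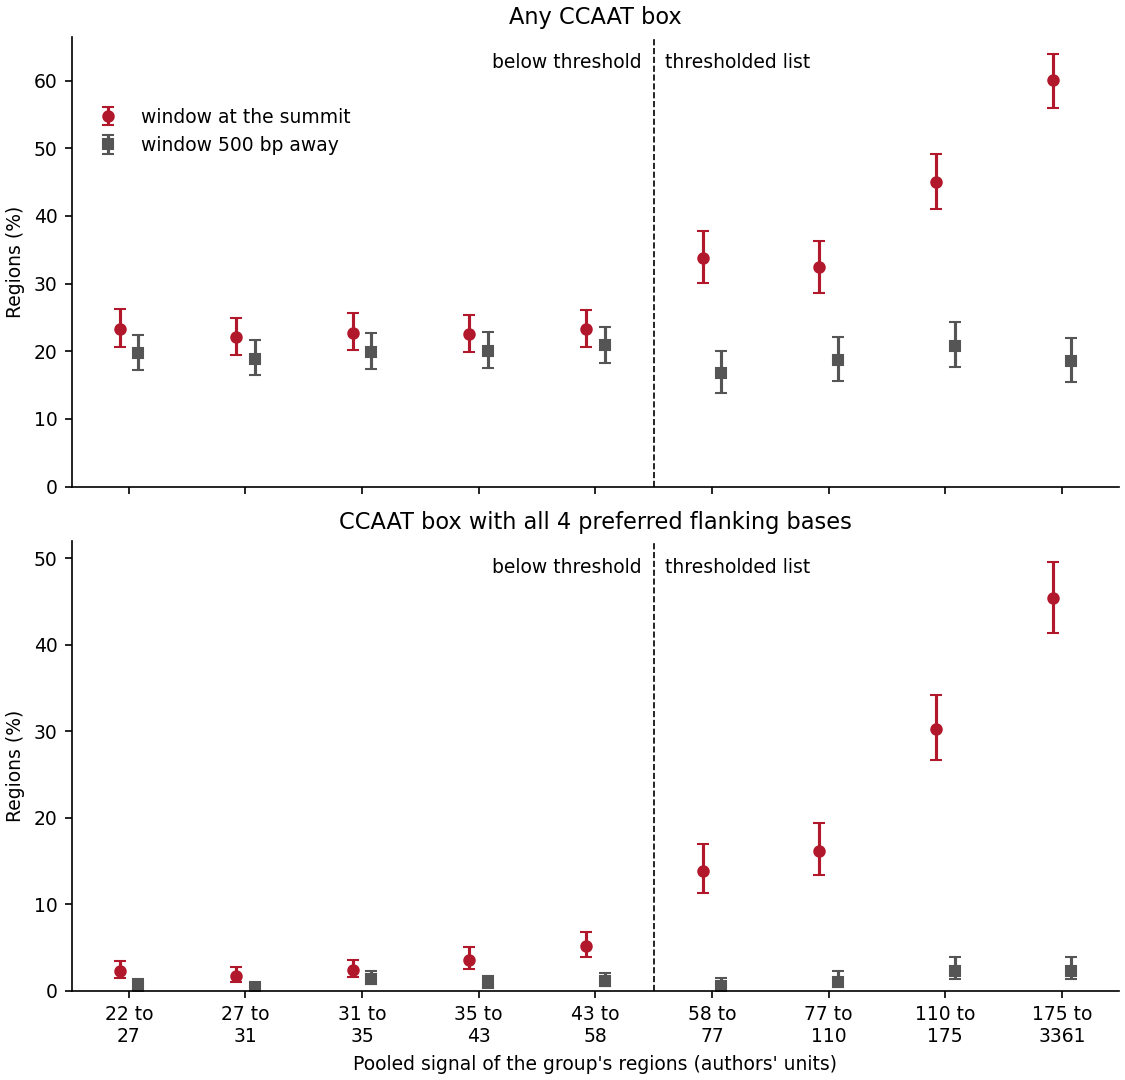
Percent of non-promoter regions with any CCAAT box (top) and with an extended box (bottom) by pooled signal, in 5 equal groups of candidate regions and, right of the dashed line, 4 equal groups of thresholded peaks; red is the summit window, grey the window 500 bp away, and bars are 95% Wilson intervals for counting error. Any CCAAT stays between 22.1% and 23.3% across the candidates, while extended boxes go from 1.69% in the second group to 5.19% in the fifth and reach 45.4% in the strongest peaks. All groups include regions that align to another region. Over all thresholded peaks shown, extended boxes were in 59.7% of those that align to another region and in 9.72% of the others.

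The share of summits with an extended box differed along the pooled signal, which is given as a description because the threshold on it chose the regions. In 5 equal groups of candidates from the weakest to the strongest, extended boxes were at 20, 15, 21, 32 and 46 summits (2.25%, 1.69%, 2.36%, 3.61% and 5.19%), while flank windows held them in 0.338% to 1.35%. Among members, 87 of the 134 with an extended box (64.9%) were in the upper 50% by pooled signal, against 419 of the other 877 (47.8%). The odds ratio was 2.02, and 1.50 without regions that align to another. The median signals of the 2 kinds were 38.1 and 32.4 pooled, 19.4 and 17.4 in replicate 1, and 16.6 and 14.3 in replicate 2, and their ranges overlapped almost entirely.

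Among members, those with an extended box more often had both replicate summits near the pooled one. Both replicates' summits were within 50 bp of the pooled summit at 89 of 134 (66.4%) and at 476 of the other 877 (54.3%), an odds ratio of 1.67 (interval 1.14 to 2.44; Fisher's exact test, adjusted p = 0.0103). The call was lost with a CCAAT search within 100 bp (1.29; Fisher's exact test, adjusted p = 0.0996). It was also lost when membership asked for replicate summits within 100 bp (89 of 119 against 476 of 694, 1.36, Fisher's exact test, adjusted p = 0.220), a setting that itself selects on summit placement. The extended boxes themselves were not measurably closer to the pooled summit: 103 of 174 (59.2%) and 556 of 1020 other boxes (54.5%) were within 25 bp (odds ratio 1.21; Fisher's exact test, interval 0.873 to 1.68, adjusted p = 0.284). In a search within 100 bp of the summit that odds ratio was 1.69 with an adjusted p of 0.000251. Of the 134, 114 (85.1%) kept an extended box within 50 bp of the replicate 1 summit and 100 (74.6%) within 50 bp of the replicate 2 summit.

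**Figure D3:**
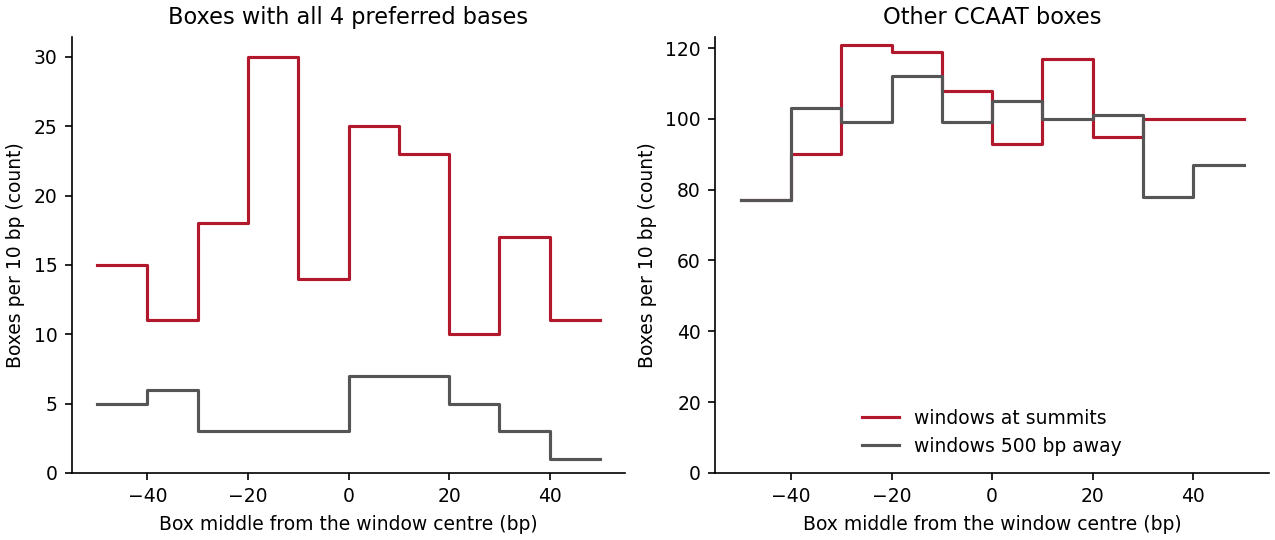
Number of boxes per 10 bp against the distance of the box middle from the window centre, for extended boxes (left) and other CCAAT boxes (right) in the summit windows of members (red) and the flank windows of candidate regions (grey). Extended boxes outnumber their flank counterparts at every distance, with 174 against 43 in all, and neither kind forms a narrow peak at the centre.

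Extended boxes were more frequent in regions found in both replicates, a call that was lost in 4 of the alternatives. Candidates held them in 3.02% and regions not in both replicates in 87 of 4338 (2.01%), an odds ratio of 1.52 (interval 1.16 to 2.00; Fisher's exact test, adjusted p = 0.00372 over the added tests). The call was lost without aligned regions (1.32, Fisher's exact test, adjusted p = 0.129), without the largest family (1.33), in the upper 50% by signal (1.34) and when replicate 1 was left out (1.26). Against the thresholded non-promoter peaks the gap was wide: 601 of their 973 CCAAT regions (61.8%) had an extended box, against 134 of the 1011 members (13.3%). That odds ratio was 0.0946 (interval 0.0757 to 0.118; Fisher's exact test, adjusted p = 5.73e-116), and 0.227 without aligned regions.

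Part of the extended boxes sit in sequences that recur across the genome. In an alignment of all pooled regions with each other (178 bp on either side of the summit), 168 members (16.6%) aligned to another region, near the 15.1% of candidates without CCAAT. The largest family joined 1819 pooled regions, of which 726 were thresholded peaks and 124 were members. Extended boxes were in 51 of the 168 aligned members (30.4%) and in 83 of the 843 others (9.85%). How the authors placed reads that match several copies is not stated in the labels or headers.

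Boxes starting 32 bp apart on the same strand recurred in these sequences. That spacing occurred in 17 members, of which 13 belong to the largest family and all 17 have an extended box, although not both boxes of every pair are extended. The next most common same-strand spacing, 5 bp, gave 5 pairs. The same 32 bp spacing occurred in 216 thresholded non-promoter peaks and in 4 flank windows of candidates. The 23 bases between the boxes shared 7 to 22 positions with those of iffb-1 in the other 16 members (median 17), and the fln-1 window, whose region aligned to no other, is among those 16. In the 220 pairs of thresholded peaks the same count had a median of 20.

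The 17 members with such pairs were among the stronger ones, with pooled signals of 27.2 to 56.9 and a median of 44.4. The strongest, in an intron of igdb-2 at IV:12469375, had 56.9 pooled, 24.7 in replicate 1 and 34.2 in replicate 2. The parp-1 intron on chromosome I (poly(ADP-ribose) polymerase) had 56.7, 26.7 and 30.5, and holds 4 boxes of which 3 are extended; its summit lies within the annotated microRNA gene cel-mir-4931. The weakest, at I:4813899 near F57C9.6, had 27.2, 12.4 and 14.9. Replicate 1 was the higher one in some of these members and replicate 2 in others.

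Members sat mostly in introns and between genes, with a larger share in coding exons than other candidates. By the position of the summit, 427 members (42.2%) were intronic, 365 (36.1%) intergenic, 178 (17.6%) in coding exons, 35 (3.46%) in 3′ UTRs and 6 (0.593%) in 5′ UTRs. The coding exon share was 407 of 3427 (11.9%) for candidates without CCAAT, an odds ratio of 1.59 (interval 1.31 to 1.92; Fisher's exact test, adjusted p = 9.30e-06 over the added tests). Flank windows in coding exons held CCAAT more often too: 167 of 664 (25.2%), against 347 of 1889 intergenic flank windows (18.4%), while summit windows in coding exons held it in 178 of 585 (30.4%). Intronic shares were 42.2% and 38.8% (odds ratio 1.15; Fisher's exact test, adjusted p = 0.0934). Soft-masked sequence at the summit was less frequent in members, 192 of 1011 (19.0%) against 783 of 3427 (22.8%), an odds ratio of 0.792 (interval 0.664 to 0.944; Fisher's exact test, adjusted p = 0.0213), a call that was lost with a smaller promoter window (0.840), with a CCAAT search within 100 bp (0.893), in the upper 50% by signal (0.797) and when replicate 1 was left out (0.866).

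In each of the 3 largest annotation classes, extended boxes were more frequent at summits than in flank windows. They were at 63 of 1756 intronic summits (3.59%) and in 11 of 1621 intronic flank windows (0.679%). Intergenic windows had 49 of 1877 (2.61%) and 17 of 1889 (0.900%), and coding exon windows 20 of 585 (3.42%) and 9 of 664 (1.36%). The difference between the 3 classes was not tested.

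**Figure D4:**
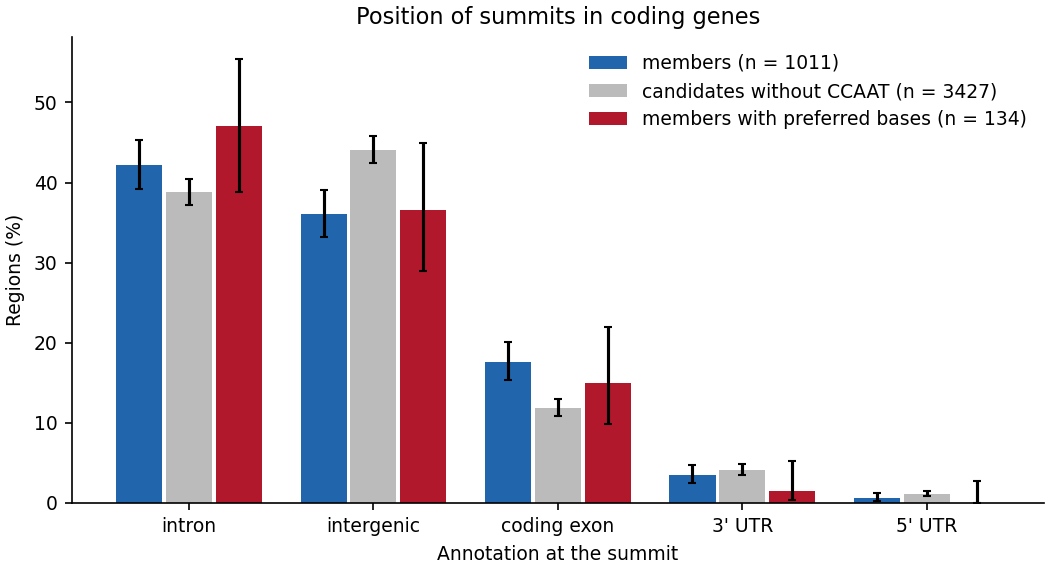
Share of summits in each annotation class of coding genes for the 1011 members (blue), the 3427 candidate regions without CCAAT (grey) and the 134 members with an extended box (red), in percent with 95% Wilson intervals for counting error. Coding exons hold 17.6% of members against 11.9% of candidates without CCAAT, and the wide red intervals overlap those of all members in every class.

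The nearest coding start was a median of 1630 bp away and at most 14203 bp. It was under 1 kb for 300 members (29.7%) and at least 5 kb for 98 (9.69%), and 458 members (45.3%) lay upstream of it. A member was nearest to the start of 920 of 19973 coding genes (4.61%), and candidates without CCAAT were nearest to 2526 (12.6%). Genes nearest to a member were longer, with a median of 4.03 kb against 2.03 kb for all coding genes. Gene lists are therefore set beside the shares with a candidate lacking CCAAT, and a nearest start does not show that a gene is a target.

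The NF-Y subunit genes themselves (4) and the Hox genes (6) had no member nearest to them. Over all coding genes the share with a member was 4.61%, so an absence in lists this small shows nothing particular to them. A candidate without CCAAT was nearest to 5 of the Hox genes and to no NF-Y subunit gene. Of 20 T-box genes, which encode developmental transcription factors, 3 (15.0%) had a member and 4 of the 20 a candidate without CCAAT. The strongest was intergenic near tbx-33, with 50.7 pooled, 30.1 in replicate 1 and 20.3 in replicate 2. An intron of mab-9, a hindgut and neuronal T-box factor, had 40.7, 25.7 and 13.6. An intron of tbx-2, a pharyngeal T-box factor, had 32.5, 13.4 and 15.0. None of the 3 held an extended box.

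Axon guidance and cell adhesion genes had the highest share of the 11 lists, 15 of 41 (36.6%) with a member, and 28 of 41 (68.3%) with a candidate without CCAAT. They were also the longest, with a median of 8.997 kb. An intron of ptp-3, a LAR-type receptor phosphatase, had 49.5 pooled, 40.5 in replicate 1 and 11.8 in replicate 2. The region 1584 bp upstream of sax-3, the Robo receptor, had 47.4, 28.5 and 23.1. An intron of efn-2, an ephrin, had 43.5, 17.5 and 13.1, and a coding exon of cdh-4, a Fat-like cadherin, had 39.8, 24.96 and 17.3. Replicate 1 was the higher one in all 4, as it was at 66.6% of all members.

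Of 29 GATA and cell fate factors, 9 (31.0%) had a member, and 14 (48.3%) had a candidate without CCAAT, at a median length of 5.29 kb. An intron of lin-14, the heterochronic transcription factor, had 53.3 pooled, 33.7 in replicate 1 and 19.2 in replicate 2. An intron of lin-29, a zinc finger factor late in the same pathway, held an extended box and had 45.5, 22.4 and 25.9. The region 5018 bp upstream of elt-1, the GATA factor that specifies epidermis, had 44.5, 22.9 and 22.7. Replicate 1 was the higher one at lin-14 and replicate 2 at lin-29, and the replicates were nearly equal at elt-1.

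Among 33 bHLH and forkhead factors, 6 (18.2%) had a member, against 11 (33.3%) with a candidate without CCAAT. They included the 5′ UTR of cnd-1, a NeuroD homolog, with 44.4, 26.2 and 18.1, and an intron of hlh-30, the TFEB homolog, with 33.5, 26.4 and 20.3. Of 48 signalling genes, 8 (16.7%) had a member and 18 (37.5%) a candidate without CCAAT. In an intron of lag-1, the nuclear effector of Notch, the values were 52.5, 25.7 and 20.1. Near cfz-2, a Frizzled receptor, they were 45.1, 18.8 and 26.8.

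Of 39 homeobox and selector genes, 5 (12.8%) had a member and 15 (38.5%) a candidate without CCAAT. An intron of eya-1, the Eyes absent homolog, had 32.2, 23.1 and 10.8, and an intron of vab-3, the Pax6 homolog, had 27.8, 16.4 and 11.5. Of 65 ion channel and synaptic genes, 7 (10.8%) had a member and 20 (30.8%) a candidate without CCAAT. The strongest was the region 574 bp upstream of lev-8, an acetylcholine receptor subunit, with 54.5, 23.8 and 30.8. An intron of egl-19, the L-type calcium channel, had 39.5, 24.6 and 13.9. Of 38 body wall muscle genes, 5 (13.2%) had a member and 16 (42.1%) a candidate without CCAAT. The strongest was 2948 bp downstream of the start of act-4, an actin gene, in an intron of M03F4.6, with 42.2, 22.7 and 18.2. An intron of unc-89, the obscurin homolog, had 41.1, 19.9 and 18.1. A coding exon of deb-1, vinculin, was the weakest of the 4 highest genes, with 26.8, 19.4 and 9.56, and held an extended box. Of 16 genes for endoplasmic reticulum chaperones, 10 (62.5%) had a candidate without CCAAT and 1 (6.25%) had a member. It is a coding exon of hsp-3, a BiP chaperone, with 35.2, 16.2 and 21.5.

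Several genes gathered more than 1 member. At least 2 were nearest to 76 genes and at least 3 to 13 genes, a count that was read after the values were seen. The cadherin gene hmr-1, needed for cell adhesion in the embryonic epidermis, had 4 nearest members, all in its introns, with pooled signals of 32.8, 37.0, 33.9 and 33.7. Another intronic member, at I:11124850 with 54.1, lies nearer to a different start. The DYRK kinase gene mbk-2, which acts at the start of embryogenesis, had 4 as well: 51.2, 57.0 and 29.2 in introns and 45.3 in the 3′ UTR. For the strongest of them, at IV:13017173, replicate 1 had 34.4 and replicate 2 had 23.1. None of the members of hmr-1 or mbk-2 held an extended box.

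The 3 members of lin-14 had 53.3, 40.3 and 24.4 pooled. The 3 of the netrin receptor gene unc-5 had 23.5, 24.5 and 35.0. Those of unc-79, a subunit gene of the sodium leak channel complex, had 23.2, 49.7 and 24.6, and the 2 intronic ones lie within 1 replicate 2 region, so they share its signal of 21.2. The weakest unc-79 member, intergenic, was the only one of these 9 with an extended box.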

How the data were processed

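Immunoprecipitated DNA was sequenced from 2 biological replicates. Per the file headers and listings, the authors deposited narrowPeak lists in 2 builds, per replicate, pooled and thresholded for reproducibility (IDR). The ce11 lists were used and the ce10 copies were not. The deposited signal is the authors' per-region value, of unstated scale; the −log10 q-value was deposited by the authors too and tested nowhere. The labels and headers name no aligner, caller or IDR threshold. Replicate read depth is unknown, so intervals cover counting of regions only.

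Summits were matched to 29314 starts of 19973 coding genes (Ensembl release 115) and to RefSeq WBcel235 sequence, whose masking method is not given. Flank windows lay 500 bp to a seeded side, and those in promoters were kept. Regions were aligned with blastn 2.17.0 (E at most 1e-08, at least 50 bp). Fisher and McNemar exact tests (scipy 1.17.1, Python 3.11.15) were used, with Benjamini-Hochberg adjustment over 9 planned and 7 added tests, and Wilson intervals for shares. Box counting and the McNemar test were checked on simulated data, and the Fisher test on a fixed table of equal shares. Regions were the units of most tests, and boxes were the units of the Fisher tests that compare boxes. Those tests count boxes of the same window as separate, and where they compare summit and flank boxes they ignore the pairing of windows. All p-values describe this 1 pair of libraries and treat neighbouring or alike regions as separate. Members, gene lists and tests were chosen with earlier results of these data known. Genes named come from the 20 strongest and 5 weakest members, the 5 strongest with boxes 32 bp apart, the 4 highest per gene list (not all of them named) and the 4 highest per non-coding class. Genes with several members, hrde-4, C36E8.4 and F57C9.6 were chosen after their values were seen. The planned test on candidates' signal and the added test on members' signal are given as descriptions, although the adjustments count them. Alternatives changed promoter, search distance, replicate requirement, signal range and families.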

Additional observations from a re-analysis of the deposited data

How the results depend on the processing

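Called results that kept direction and call under every alternative run were the excess of extended boxes at summits (by box, odds ratio 2.26 to 4.15; by region, ratio 2.38 to 4.14), their lower share in members than in thresholded peaks (0.0813 to 0.231), the lower CCAAT share than in thresholded peaks (0.284 to 0.695) and the coding exon share (1.37 to 1.68). The number of members moved to 550 with CCAAT within 25 bp and 1759 within 100 bp, and was 1454 to 1516 with either replicate left out. CCAAT at summits against flanks lost its call without the largest family (1.13). The masked share lost it with a promoter of 250 bp upstream to 50 bp downstream (0.840), within 100 bp (0.893), in the upper 50% by signal (0.797), and with 1 replicate left out ranged from 0.819 to 0.866. Placement of both replicate summits, members against other candidates, gained a call with that promoter (1.18). Among the added tests, extended boxes against regions not in both replicates lost the call in the upper 50% by signal (1.34), without aligned regions (1.32), without the largest family (1.33), and ranged from 1.26 to 1.45 with 1 replicate left out. The odds ratio for the upper 50% of members by signal, a description, was 1.50 without aligned regions and 1.49 without the largest family. Placement of their replicate summits within 50 bp lost the call when membership asked for replicate summits within 100 bp (1.36) and with CCAAT within 100 bp (1.29), where their closeness to the summit gained one (1.69). Uncalled odds ratios near 1 changed side: CCAAT against regions not in both replicates with a promoter of 1000 bp upstream to 200 bp downstream (1.00), replicate summits within 100 bp required for membership (1.01), CCAAT within 25 bp (1.04) and within 100 bp (1.02); signal within 100 bp (0.998), without aligned regions (0.984) and without the largest family (0.951); and boxes in the inner 25 bp with the wider promoter (0.966), without aligned regions (0.966) and without the largest family (0.986). The cause of these changes was not tested. No paired analysis was possible because there is 1 group. With 2 replicates of unknown depth, a missing region in one list says nothing about binding there.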

Other observations

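Extended boxes were less frequent among members on chromosome X than on the autosomes: 13 of 202 (6.44%) and 121 of 809 (15.0%). Over candidate regions the shares were 1.46% at summits and 1.01% in flank windows on X, and 3.41% and 0.817% on the autosomes. Without regions that align to another they were 1.25% and 0.998% on X, and 2.48% and 0.882% on the autosomes. Thresholded non-promoter peaks had extended boxes in 4.07% on X and 30.8% on the autosomes. In the same peaks any CCAAT was at 22.5% of summits on X and 46.8% on the autosomes. These peaks were not recounted by chromosome without aligned regions. Any CCAAT was at 22.7% of candidate summits on X and 22.8% on the autosomes. The split by chromosome was chosen after the values were seen and was not tested.

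Members inside annotated non-coding genes were few. An ncRNA gene held 50 members (4.95%, against 6.27% of candidates without CCAAT), a tRNA gene 3 (0.297% against 0.817%), a lincRNA gene 5 (0.495% against 0.233%) and a piRNA gene 3 (0.297% against 0.0584%). No member lay in a snoRNA or snRNA gene, where candidates without CCAAT were also rare (0.146% and 0.0875%). At such low shares this absence shows nothing particular to members. The strongest lincRNA member was in linc-91, with 52.2 pooled, 24.2 in replicate 1 and 25.2 in replicate 2.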
